A study of Homo sapiens with 4 samples.

Results

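N6-methyladenosine (m6A) sites in the coding parts of long internal exons are described here, in untreated C643 cells, a long-established cell line that originated in an anaplastic thyroid carcinoma. The sites come from miCLIP2, in which fragmented polyadenylated RNA is crosslinked to an anti-m6A antibody and sequenced at single-nucleotide resolution, and from m6Aboost, a classifier that gives each candidate adenosine a prediction score. The wild-type group had 3 biological replicates in 4 libraries, because replicate 1 was sequenced as a pair of technical replicates, and the site list pools them. A site was a member when it lay on the coding strand in the coding sequence of the Ensembl canonical transcript of a protein-coding gene, in an exon that was neither the first nor the last, and more than 100 nt from both ends of that exon. The rule found 1922 of the 18789 listed sites. Of these, 17 met it only through readthrough genes, whose models join neighbouring genes, and were set aside. The remaining 1905 sites were 10.14% of the list (95% Wilson interval 9.715 to 10.58) and lay in 688 exons of 587 genes.

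The list gives no read counts, so the depth behind a site is unknown, and it gives no value per replicate. No control cells, no cells depleted of the methyltransferase and no expression values were analysed here. Intervals therefore cover sampling over motifs and genes, not variation between cultures. Wilson intervals and Mantel-Haenszel intervals and tests treat motifs of 1 exon as independent. A motif that is not listed may be unmethylated, poorly covered or absent from the spliced RNA, and these cases cannot be told apart.

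m6A is placed on nascent mRNA by the METTL3–METTL14 complex, mostly at the adenosine of DRACH motifs (D is A, G or T, R is A or G, H is A, C or T). Much of the mark in mRNA is known to sit in last exons near the stop codon, and unusually long exons inside the coding region carry it as well. Exon junction complexes, which splicing deposits next to exon–exon junctions, are known to keep methylation away from their surroundings, and m6A in the transcript is read by YTH-domain proteins that act on mRNA decay, splicing and translation.

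The densest stretches of 4 of the richest exons show what members look like in sequence. Each line gives 200 nt of the sense strand from GRCh38, written 5′ to 3′, with the pentamer of every member in capitals. The methylated adenosine is the third base of each pentamer.
HELZ2 exon 9, minus strand, chr20:63563804-63564003: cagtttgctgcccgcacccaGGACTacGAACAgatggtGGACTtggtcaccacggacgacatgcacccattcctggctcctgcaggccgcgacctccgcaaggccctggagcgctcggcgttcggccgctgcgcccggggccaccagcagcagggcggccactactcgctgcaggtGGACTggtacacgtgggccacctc
TNKS1BP1 exon 6, minus strand, chr11:57309198-57309397: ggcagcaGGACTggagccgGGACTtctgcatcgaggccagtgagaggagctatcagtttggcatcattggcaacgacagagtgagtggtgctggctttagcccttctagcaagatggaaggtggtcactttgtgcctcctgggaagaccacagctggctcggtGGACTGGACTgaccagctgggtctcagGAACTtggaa
WDR6 exon 2, plus strand, chr3:49011736-49011935: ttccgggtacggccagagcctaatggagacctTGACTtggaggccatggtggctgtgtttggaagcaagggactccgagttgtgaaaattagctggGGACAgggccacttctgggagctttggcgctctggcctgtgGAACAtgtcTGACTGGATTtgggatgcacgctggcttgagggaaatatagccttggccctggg
RAI1 exon 3, plus strand, chr17:17794713-17794912: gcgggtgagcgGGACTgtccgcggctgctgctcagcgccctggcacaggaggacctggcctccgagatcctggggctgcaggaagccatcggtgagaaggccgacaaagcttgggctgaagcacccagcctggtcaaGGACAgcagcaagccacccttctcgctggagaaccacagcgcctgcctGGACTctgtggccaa
In the HELZ2 stretch all 4 DRACH motifs were listed, with scores between 0.6607 and 0.8464. The TNKS1BP1 stretch held 7 DRACH motifs, of which 5 were listed, and 2 of its listed GGACT pentamers touch. In the WDR6 stretch 4 of 6 DRACH motifs were listed together with a GGATT pentamer, which lies outside DRACH and directly follows a listed TGACT. The RAI1 stretch had 3 of 5 DRACH motifs listed.

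Listing was dense in these inner stretches. In the exons of canonical transcripts of all 3716 host genes (genes with at least 1 listed site), 7.61% of DRACH motifs were listed, and among coding motifs of internal exons the share was 3.59%. Over inner motifs alone it was 14.54% (13.92 to 15.19), or 1734 of 11924 motifs, against 1.841% (1.747 to 1.94) of the 74535 motifs within 100 nt of an exon end. Members made up 55.17% of the 3453 listed coding sites of internal exons, the other 1548 lying near an end. With motifs compared within each gene, the odds of listing were 8.187 times higher for inner motifs (Mantel-Haenszel interval 7.284 to 9.202, z = 42.11, 785 genes). Because the comparison is within genes, the level of a gene's mRNA enters both sides. Host genes with a listed site in the 3′ untranslated region, whose entry did not depend on a coding site, had 15.27% of their inner motifs listed.

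The share listed did not jump at the 100-nt limit but rose across it. Between 50 and 75 nt from the nearer end it was 2.011%, between 75 and 100 nt 3.774%, between 100 and 125 nt 8.89% and between 125 and 150 nt 11.07%, each bin taking in its upper bound. Between 150 and 200 nt it reached 17.79% (16 to 19.74), and it stayed at 19.37% and 19.47% in the next 100-nt steps. Motifs more than 1000 nt from both ends were listed at 9.474% (7.907 to 11.31). The 5′ and 3′ ends gave similar courses, with 8.993% (7.717 to 10.46) at 100 to 150 nt from a 5′ end and 10.47% (9.11 to 12.02) at the same distance from a 3′ end. Over all inner motifs, listing had no detectable relation to the logarithm of the distance at a given exon length (odds ratio per doubling 0.9937, 0.9153 to 1.079, n = 11924 motifs, adjusted p = 0.947). With a limit of 50 nt in place of 100 nt the ratio was 1.08 (1.007 to 1.158), past the unadjusted threshold. Up to 400 nt from the nearer end, a range chosen after seeing the data, the odds ratio per doubling was 1.686 (1.455 to 1.954).

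**Figure D1:**
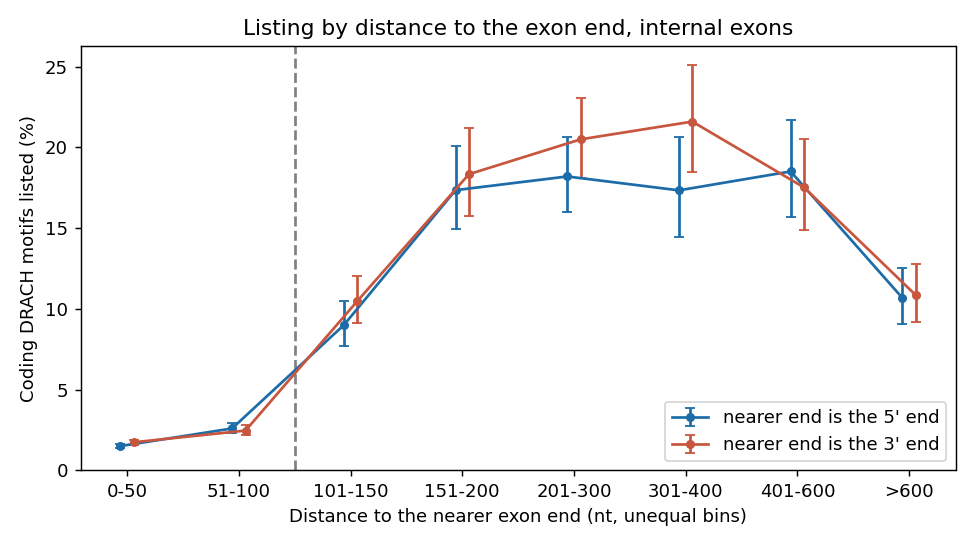
Percentage of coding DRACH motifs of internal exons that were listed (y axis) against the distance to the nearer exon end in nt (x axis, unequal bins), drawn separately by which end is nearer, with 95% Wilson intervals. The dashed line marks the 100-nt limit, beyond which both curves climb from under 3% to above 17% at 150 to 200 nt before falling beyond 600 nt.

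The sites closest to the limit show how fine the division is. Just inside, on the first nucleotide past the limit, lay sites of MXRA8, an adhesion protein that also serves as an alphavirus receptor, METTL13, a methyltransferase of a translation elongation factor, and NR2F6, an orphan nuclear receptor. Just outside, 100 nt from an end, lay sites of MRPL37, a mitochondrial ribosomal protein, ARHGEF40, a guanine nucleotide exchange factor, and KHNYN, a cofactor of the antiviral protein ZAP. The scores were 0.6529, 0.7473 and 0.7986 inside and 0.8321, 0.6275 and 0.6616 outside.

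Few exons offer such inner sequence. Of the 31691 internal coding exons of host genes, whose median length was 123 nt, 3960 or 12.5% were longer than 202 nt, the length above which an inner position exists. Members lay in exons of 210 to 6701 nt, with a median over members of 897 nt and quartiles of 604 and 1624 nt. Over the 688 exons the median was 633.5 nt. Of the 2140 exons with at least 1 inner DRACH motif, 687 (32.1%) held a member, a share that grew from 9.867% of exons of up to 400 nt to 57.74% at 400 to 800 nt and 81.86% at 800 to 1600 nt, and was 75% at 1600 to 3200 nt and 70% above 3200 nt, each class taking in its upper bound.

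Per motif, listing followed exon length upward and then downward. It was 6.42% (5.478 to 7.511) in exons of up to 400 nt, 19.14% (17.84 to 20.52) at 400 to 800 nt, 18.78% (17.38 to 20.26) at 800 to 1600 nt, 14.77% (13.31 to 16.36) at 1600 to 3200 nt and 8.294% (7.001 to 9.802) above 3200 nt. The longest class held only 20 exons, in 20 genes. A single slope over all lengths was 1.027 per doubling of length (0.9334 to 1.13, n = 11924 motifs, p = 0.583, adjusted p = 0.8016), but single settings changed this call (a limit of 50 nt gave 1.574 and a limit of 200 nt gave 0.6948, both past the threshold), and the slopes below and above 800 nt had opposite signs. In exons of at most 800 nt the odds ratio per doubling was 3.16 (2.599 to 3.843), and in longer exons it was 0.6411 (0.5251 to 0.7827), a division made after seeing the data. In host genes with a listed 3′ untranslated site the slope for longer exons was 0.6348 (0.4609 to 0.8744).

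**Figure D2:**
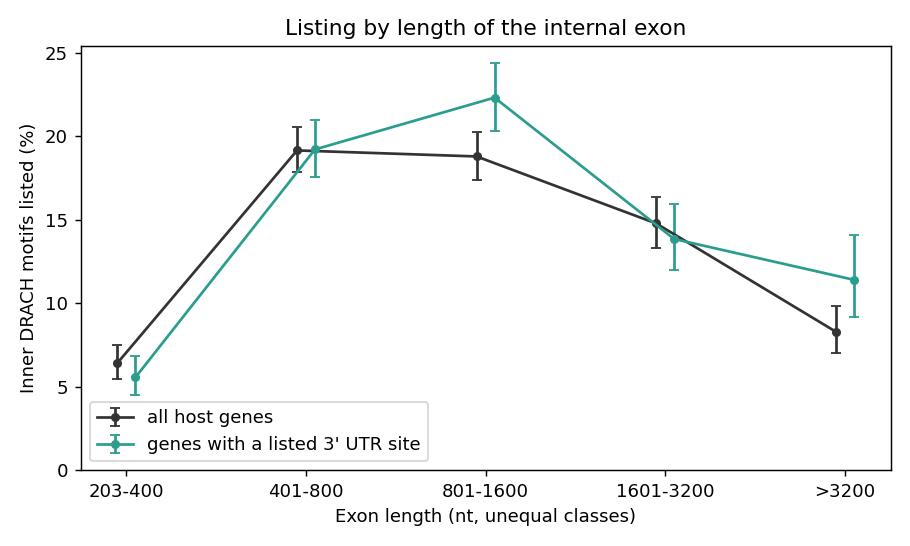
Percentage of inner coding DRACH motifs that were listed (y axis) by length class of the internal exon in nt (x axis, unequal classes), with 95% Wilson intervals, for all host genes and for host genes with a listed 3′ untranslated site. Both series are lowest at up to 400 nt, at 6.42% and 5.556%, peak between 400 and 1600 nt and fall in the longest exons.

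Inner motifs of short exons all lie close to the limit, so exon lengths were also compared at a fixed distance. At 100 to 150 nt from the nearer end, 5.835% (4.887 to 6.953) of motifs were listed in exons of up to 400 nt. At the same distance the share was 15.72% (13.55 to 18.17) in exons of 400 to 800 nt, 14.2% (10.88 to 18.33) at 800 to 1600 nt and 12.4% (7.781 to 19.2) above 1600 nt. The distance to the farther end differs between these classes, and its part was not tested.

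The base composition around the motif moved with listing. The median GC content within 100 nt on either side of inner motifs was 62.69% for listed and 59.7% for unlisted motifs. Of 184 motifs in windows of at most 40% GC, from only 19 genes, none was listed. This allows a share of up to 1.63% (here and below, 3 counts of the total is the limit that a count of 0 allows). The share rose through 3.641%, 5.521%, 9.157%, 14.01% and 16.81% in steps of 5 points to 20.17% (18.76 to 21.65) above 65% GC. Per 10 points of GC the odds of listing were 1.775 times higher (1.59 to 1.98, n = 11924 motifs, p = 1.079e-24, adjusted p = 3.955e-24). Exon length and the motif type (GGACT or other) were in this model, but the other pentamers were not told apart. With the mean GC content of the gene's inner motifs added, a covariate chosen after seeing the data, the ratio was 1.31 (1.137 to 1.509). Among GGACT motifs alone, without that covariate, the ratio was 1.883 (1.5 to 2.364).

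The relation to GC content was steepest by eye in the longest exons. Above 1600 nt, listing was 0.9174% (0.3125 to 2.662) at up to 45% GC, 4.611% at 45 to 55%, 11.56% at 55 to 65% and 25.81% (22.79 to 29.08) above 65%. In exons of up to 800 nt the corresponding shares were 6.716%, 8.885%, 15.13% and 16.25%. The difference between these courses was not tested. With GC content in the model, the slope for exons longer than 800 nt was 0.6901 per doubling (0.5812 to 0.8195). The classes did not all follow that slope, since above 65% GC listing was 22.7% (19.76 to 25.93) at 800 to 1600 nt and 25.81% above 1600 nt. GC content of a gene also goes with its chromosomal surroundings and may go with its expression, which was not analysed here.

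**Figure D3:**
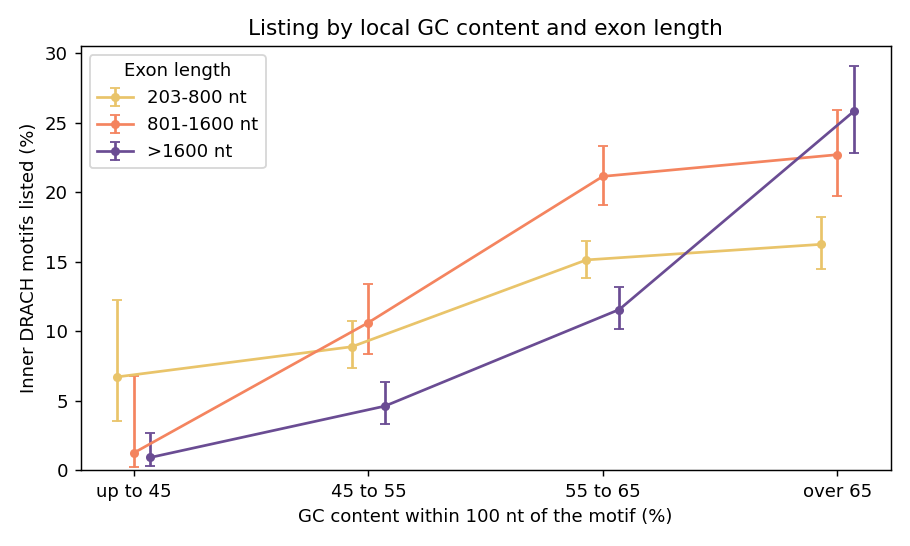
Percentage of inner coding DRACH motifs that were listed (y axis) by GC content within 100 nt on either side (x axis, 4 classes), for 3 classes of exon length, with 95% Wilson intervals. In exons longer than 1600 nt the share runs from 0.9174% to 25.81%, and in exons of up to 800 nt from 6.716% to 16.25%.

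Members were spread unevenly over exons and genes. A single member was found in 297 exons, 2 to 4 in 281, 5 to 9 in 85 and 10 or more in 25. Per gene the median was 2, with 211 genes (35.95%) holding 1 member and 29 genes holding at least 10, together 440 members or 23.1%. Between neighbouring members of the same exon the median gap was 90 nt (quartiles 40 and 180 nt), and 377 of 1217 gaps (30.98%) were at most 50 nt. Sites so close can share reads and are not independent calls. Exon 2 held 518 members (27.19%), and 306 lay in the exon before the last. The share of all inner motifs in these exons was not computed, so neither count can be read as an enrichment.

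The richest exon was exon 9 of HELZ2, a helicase that coactivates nuclear receptors. It held 24 members in 3712 nt, and 19 of its 42 inner DRACH motifs were listed, or 45.24% (31.22 to 60.05). Exon 6 of TNKS1BP1, a tankyrase-binding protein, and exon 2 of WDR6, a WD-repeat protein that takes part in tRNA methylation, held 20 each. Of their 52 and 34 inner DRACH motifs, 38.46% and 35.29% were listed. In TNKS1BP1 all 20 were DRACH sites, 12 of them GGACT, with a median score of 0.7995. In WDR6, by contrast, no member was GGACT, and 8 of 20 lay outside DRACH, 4 of them at GGATT.

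Regulators of transcription and RNA came next. Exon 3 of RAI1, a chromatin-associated transcriptional regulator, held 18 members, and these occupied 20% (13.04 to 29.41) of its 90 inner motifs. C15orf39 exon 2 held 17 members, and 16 of its 42 inner DRACH motifs were listed, or 38.10%. SCAF1 exon 7 held 16 members at 41.03% of its motifs. ZNF646 exon 2 held 16 members, and 15 of its 121 inner DRACH motifs were listed, or 12.40%. SCAF1 is an SR-related factor associated with RNA polymerase II, and ZNF646 a zinc finger protein. AHDC1, an AT-hook protein, held 15 members in the 4929 nt of its exon 8. Of the 75 inner DRACH motifs there 13 were listed, or 17.33% (10.42 to 27.43), near the 14.54% over all host genes.

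Exons of matrix, membrane and centrosomal proteins were among the remaining exons named. Exon 3 of TNC, which encodes the matrix glycoprotein tenascin-C, held 15 members in 1410 nt, and its 56% listed (14 of 25 motifs, 37.07 to 73.33) was the highest share among the 111 exons with at least 20 inner motifs. Their median share was 9.756%, and 26 of them had no member. CEP170B exon 12 held 14 members, and 10 of its 21 inner DRACH motifs were listed, or 47.62%. SH3TC1 exon 12 held 13 members, and 10 of only 19 such motifs were listed, or 52.63%. The exons MAP1S exon 5, NCKAP5L exon 8 and PHRF1 exon 14 also held 13 each, and SH3TC1 was taken as the twelfth for its larger share of motifs listed. RIN3 exon 6 and MAP1S exon 5 also stood high, at 45.45% and 41.38%. RIN3 binds Rab GTPases and MAP1S microtubules. Exon 15 of PKD1, which encodes polycystin-1, held 14 members, and 13 of its 38 inner DRACH motifs were listed, or 34.21%. However, near-identical pseudogene copies of this part of PKD1 exist. Reads of the gene and its copies may have been exchanged, so these counts are uncertain.

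**Figure D4:**
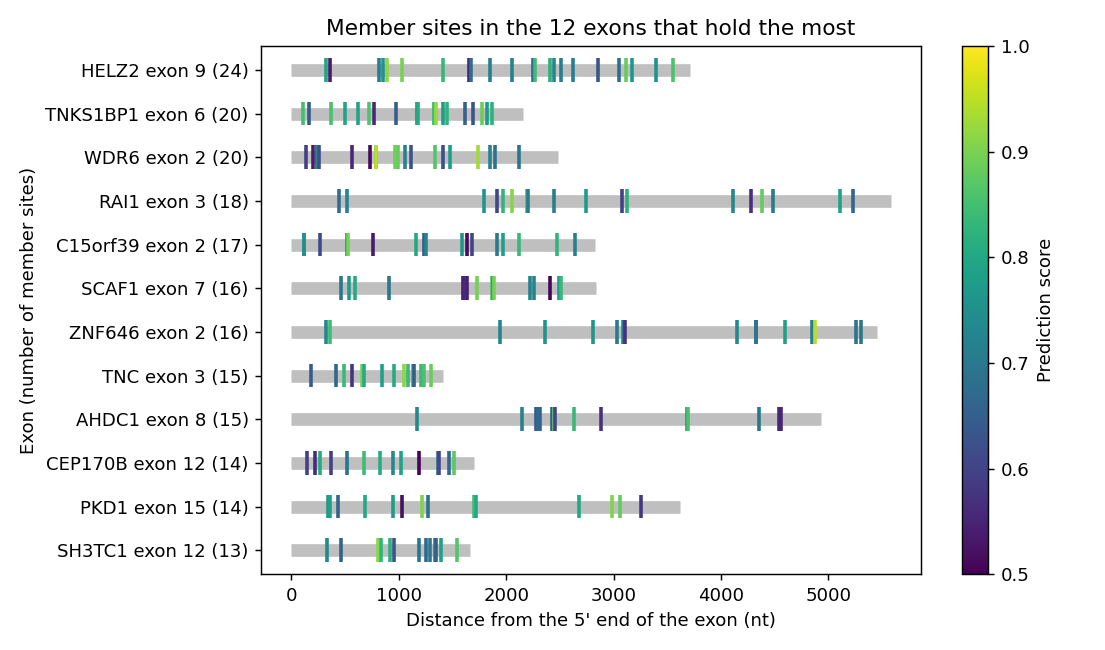
Members in 12 of the exons that hold the most, with the distance from the 5′ end of the exon in nt on the x axis, each exon as a grey bar to scale and each member as a tick coloured by prediction score from 0.5 to 1. The number in brackets is the exon's count of members, from 24 in HELZ2 to 13 in SH3TC1, the last tied with 3 other exons, and ticks run along most of each bar rather than gathering at 1 end.

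The best-scored member of each of these exons, was GGACT in 7 of the 12, and 7 of these sites are shown as the most certain calls of their exons. Each sequence is 21 nt of the sense strand with the adenosine at position 11 counted from the 5′ end and the pentamer in capitals.
TNC, chr9:115086220, minus strand, score 0.9125: tgccccagGGACTgcagcaac
HELZ2, chr20:63565337, minus strand, score 0.9161: ggccgcctGGACTgtgggatg
TNKS1BP1, chr11:57309205, minus strand, score 0.9233: ggtctcagGAACTtggaagtg
WDR6, chr3:49012428, plus strand, score 0.9493: gacaccagGGACGtgggatcc
RAI1, chr17:17794990, plus strand, score 0.9087: aatgccaaGGACTtcagccca
SCAF1, chr19:49652755, plus strand, score 0.8999: agggacagGGACAggtcatcc
AHDC1, chr1:27549747, minus strand, score 0.8854: gctggccgAAACTgtgggttt
The WDR6 site is the exception among them, since GGACG is not a DRACH motif and still scored 0.9493.

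The 3 longest exons were not among the 12 that held the most members. Exon 11 of SRRM2, a spliceosome-associated protein of nuclear speckles, was the longest at 6701 nt and held 11 members, at 7.914% (4.476 to 13.61) of 139 motifs. Exon 9 of ANKRD11, a chromatin regulator, had 6578 nt and 142 inner DRACH motifs. None of these was listed, which allows a share of up to 2.113%, and its only member was a non-DRACH site. Exon 3 of SON, another speckle protein, held 4 members among 114 motifs in 5916 nt. The GC content around inner motifs was 54.24%, 53.69% and 47.63% in these 3 exons. In the 12 exons described above it lay between 57.70% in WDR6 and 69.42% in SCAF1. Those 12 include the exons next in length, RAI1 exon 3 (5581 nt) and ZNF646 exon 2 (5456 nt). They held 18 and 16 members, at a GC content of 63.85% and 60.64%.

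The 4 SON sites are shown because they lie in copies of a short repeat, the first of them 30 nt apart. All are in exon 3, plus strand.
SON, chr21:33551456, score 0.8743: aacaccatGGACTcccagatg
SON, chr21:33551486, score 0.8743: aacaccatGGACTcccagatg
SON, chr21:33551516, score 0.6975: agcaccatGGACTcccagatg
SON, chr21:33551846, score 0.8752: ggcactatGGACTctcaaatg
The windows of the first pair are identical, the next differs from them by 1 base and the last by 5. Reads from such copies can be exchanged, so the 4 listings are not independent.

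Among long exons without a member, those of HIVEP3 exon 4 (5582 nt, 81 motifs), TACC2 exon 4 (5313 nt, 88 motifs), MPRIP exon 16 (3807 nt, 55 motifs), RNF213 exon 29 (3609 nt, 67 motifs) and MAP4 exon 9 (3384 nt, 68 motifs) were the longest. A count of 0 allows shares of up to 3.704%, 3.409%, 5.455%, 4.478% and 4.412%. All 5 genes had listed sites elsewhere. TACC2, MPRIP and MAP4 held 3, 2 and 3 members in other exons, while HIVEP3 had 1 listed site and RNF213 had 2, none of them members. Whether C643 cells include these exons in the spliced mRNA was not analysed here.

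A gene may also carry members in many exons. COL6A3, named here after its values were seen, held 18 members in 9 exons of 494 to 699 nt, the most exons of any gene. Of these members 3 lay outside DRACH. In these exons the share of inner DRACH motifs listed ran from 0% of 5 in exon 7 to 40% of 5 in exon 11. No share over the whole gene was computed, so its count cannot be read as an enrichment. COL6A3 encodes a collagen VI chain whose N-terminal part is a row of von Willebrand factor A domains. The lowest of its scores was 0.5539, the median 0.7752 and the highest 0.8686. Members in more than 1 exon were found in 77 genes.

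Gene groups show where such exons occur. Counts are over lists of genes known for long exons, and the share over all host genes, 14.54%, stands beside each. Of 34 chromatin regulators, 13 were host genes with an inner motif and 8 held members, with 31 of 369 motifs listed, or 8.401% (5.981 to 11.68). KMT2B, a histone H3 lysine 4 methyltransferase, had 12 of 49 motifs listed, whereas its relative KMT2D had 4 of 133. SETD1A, another such enzyme, and its partner HCFC1 held 6 and 5 members. Of 26 DNA repair and replication genes 4 were host genes and 3 had an inner motif. Of these MDC1, a mediator of the damage checkpoint, held 8 members and TONSL 2, and the group stood at 8.13% (4.476 to 14.32).

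The mitosis and centrosome group stood at 7.447% (4.922 to 11.12) with 21 members in 6 genes. NUMA1, a spindle pole protein, led it with 9 of 45 motifs listed, while TACC2 had 3 of 123, CEP250 2 of 64 and TACC3 4 of 21. Cytoskeletal linkers stood at 7.634% (4.996 to 11.5), with SPTBN1, a spectrin, at 7 members, and MYO9B, MAP4 and PLEC at 3 each. In PLEC, which encodes plectin, 48 sites were listed, 3 of them in the inner part of internal exons. It had only 23 inner DRACH motifs, and the 13.04% listed was near the 14.54% over all host genes. The groups differ in GC content and exon length, whose part in these shares was not tested.

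RNA processing and translation genes had 53 of 428 motifs listed, or 12.38% (9.593 to 15.84), with SCAF1 at 16 members, PRRC2A at 15, SRRM2 at 11 and PRRC2B at 5. PRRC2A has itself been described as an m6A-binding protein. Extracellular matrix and large membrane proteins stood at 20.37% (14.89 to 27.22), but the median over their genes was 3.571%. The same median was 0% over all host genes, and it lay between 5.844% and 9.524% in the other lists. TNC with 15 of 46 motifs, PLXNB2, a semaphorin receptor, with 9 of 16 and LRP5, a Wnt co-receptor, with 5 of 18 carried the group. Of 6 members in PLXNA1, a further plexin, 4 were at GGACG. The scaffold group rested on SEC16A, an organiser of endoplasmic reticulum exit sites, with 10 of 55 motifs, and TRAPPC9, with 2 of 10.

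DRACH pentamers were listed to very different degrees. GGACT stood highest, at 47.34% (44.13 to 50.57) of 921 inner motifs, and supplied 436 members. GGACA gave 315 members at 26.05%, GGACC 253 at 16.7%, GAACT 173 at 35.82% and AGACT 154 at 28.73%. Motifs ending in T were listed at 32.58% (30.92 to 34.28), those ending in A at 11.15% and those ending in C at 6.425%. At the low end TAACA was listed at 0 of 133 motifs, which allows up to 2.256%. Since the classifier reads the 21 nt around the adenosine, the order of pentamers is in part its own.

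GGACT also stood highest near exon ends, where it was listed at 8.892% (8.131 to 9.718) and all other DRACH motifs together at 1.339%, against 11.8% for the others in inner stretches. The ratio of odds between GGACT and the rest did not differ detectably between inner and near-end motifs (interaction odds ratio 0.9348, 0.7715 to 1.133, n = 86459 motifs, p = 0.4918, adjusted p = 0.7728). With only scores of at least 0.7 counted as listed, the ratio was 0.7432 (0.5804 to 0.9517), past the unadjusted threshold.

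Of the members, 171 or 8.976% lay outside DRACH, against 11.37% of near-end sites (odds ratio 0.7688, 0.6044 to 0.9778, n = 3453 sites, p = 0.03215, adjusted p = 0.05895), a difference that missed the threshold after adjustment over 11 tests. They spread over 17 pentamers, and 145 were at GGACG (91), GTACT (25), GGATT (13), GAACG (9) or AGACG (7). Only 16 had no C after the adenosine. The best-scored site of each kind is shown, since these are the members a motif search would miss.
EGLN2 exon 2, chr19:40800805, plus strand, score 0.955: cctcttcgGGACGgttttggc
COG8 exon 3, chr16:69334882, minus strand, score 0.7987: cagtgcatGTACTttgggctg
SYMPK exon 26, chr19:45815969, minus strand, score 0.6564: gaagccatGGATTtccgggag
WDR6 exon 2, chr3:49012974, plus strand, score 0.8637: ttgtcaagGAACGttgtcggt
LRP10 exon 5, chr14:22876130, plus strand, score 0.7585: cagatgagAGACGctgtcggc
EGLN2 is an oxygen-sensing prolyl hydroxylase, COG8 a Golgi tethering subunit, and SYMPK a scaffold of mRNA 3′-end processing. Scores at GGATT stayed low, from 0.5088 to 0.6564, while those at GGACG reached 0.955.

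The reading frame was no input of the classifier. The adenosine was the second base of its codon in 1108 members (58.16%), the first base in 452 and the third in 345. The codon GAC for aspartate held 50.63% of listed DRACH members, ACT for threonine 14.19% and GGA for glycine 9.285%. GAC was also the most frequent codon at inner motifs, with 4802 of 11924, against 868 for ACT and 598 for GGA. The shares of these motifs listed were 18.28%, 28.34% and 26.92%, against 14.54% of all inner motifs. The share of motifs listed was 12.11% for the first, 15.84% for the second and 14.65% for the third codon position. At a given pentamer the odds ratio was 1.023 (0.8635 to 1.211) for the second and 0.9734 (0.7963 to 1.19) for the third position against the first (n = 11924 motifs, joint p = 0.8637, adjusted p = 0.947).

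Position along the coding sequence made no detectable difference either. In 10 equal steps along the coding sequence the share listed stayed between 13.35% and 15.89%, and the odds ratio per step was 1.001 (0.9713 to 1.032, n = 11924 motifs, p = 0.947, adjusted p = 0.947). With a distance limit of 50 nt the ratio was 0.9714 (0.9463 to 0.9971), past the unadjusted threshold. Within the exon, motifs nearer the 3′ end were listed somewhat more often than those nearer the 5′ end of the same exon (Mantel-Haenszel odds ratio 1.139, 1.014 to 1.28, n = 581 exons, p = 0.02724), but not after adjustment over the 11 tests (adjusted p = 0.05895). For GGACT motifs alone the ratio pointed the other way, at 0.6418 (0.3679 to 1.12).

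Members scored higher than coding sites near exon ends. Their median score was 0.7209 (quartiles 0.6232 and 0.8045), against 0.6385 near ends, and 55.12% of members but 34.37% of near-end sites reached 0.7. The median over all listed sites, 0.7543, was above that of members. At a given pentamer the difference was 0.0583 (0.0507 to 0.0660, n = 3106 DRACH sites, p = 1.057e-50, adjusted p = 5.813e-50). The score takes in the relative signal strength of a site, so it is no independent reading of methylation. GGACT members had a median of 0.7898, and members outside DRACH 0.6469.

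**Figure D5:**
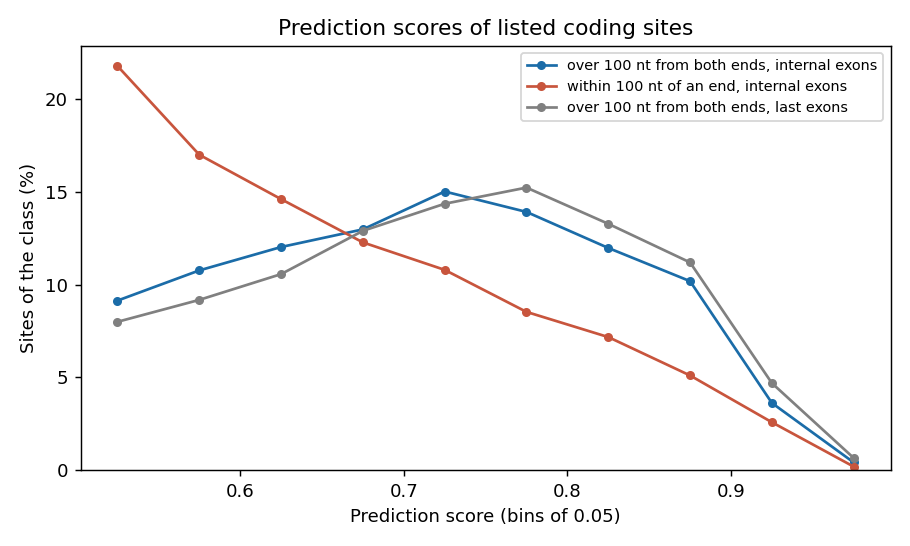
Distribution of prediction scores in bins of 0.05 (x axis) as a percentage of the sites of each class (y axis), for members, for coding sites within 100 nt of an end of an internal exon, and for coding sites of last exons more than 100 nt from both exon ends. The near-end sites gather at low scores, with a median of 0.6385, and members and last-exon sites have medians of 0.7209 and 0.7318.

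The highest score among members was at DHX30, an RNA helicase, and 4 of the 5 highest were at GAACT. The sequences are given because they are the members predicted with most confidence.
DHX30 exon 11, chr3:47846329, plus strand, score 0.9676: gtctgctaGAACTgtggcggc
BCL2L1 exon 2, chr20:31721832, minus strand, score 0.9649: tagtgaatGAACTcttccggg
USP36 exon 14, chr17:78807113, minus strand, score 0.961: caggaaacGAACTgttccacc
EIF4G1 exon 10, chr3:184321825, plus strand, score 0.9598: ccagctgtGGACTtaagccca
DNAJB1 exon 2, chr19:14516824, minus strand, score 0.9593: accaacgtGAACTttggccgc
BCL2L1 encodes the apoptosis inhibitor Bcl-xL, USP36 a nucleolar deubiquitinase, EIF4G1 the scaffold of cap-dependent translation initiation, and DNAJB1 a co-chaperone of HSP70. All 5 exons were between 581 and 837 nt long. The lowest scores included those of KEAP1, the adaptor that targets NRF2 for degradation, and PPRC1, a transcriptional coactivator, at 0.5001 each.

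Coding sequence of last exons was still more densely listed. More than 100 nt from both exon ends, 24.28% (23.47 to 25.12) of the 10377 coding DRACH motifs of last exons were listed, an odds ratio of 1.949 (1.671 to 2.274, n = 22301 motifs, p = 1.977e-17, adjusted p = 5.436e-17) against inner motifs of internal exons. In a last exon no junction follows, so the distance to the nearer junction differs between the classes as well as the exon's rank. Of the members, 1190 (62.47%) lay in genes that also had a listed 3′ untranslated site. The share of inner motifs listed in such genes, 15.27% (14.45 to 16.13), was near the 14.54% over all host genes. For 120 genes (20.44% of the 587) members were the only listed sites.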

How the data were processed

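The authors' miCLIP2 libraries were aligned to GRCh38.p12 with STAR 2.7.3a and handled with SAMtools 1.9, UMI-tools 1.0.0 (deduplication) and bedtools 2.27.1, per the submitters' processing notes. Candidate peaks were classified by m6Aboost, which reads the surrounding 21 nt, the transcript region, C-to-T changes and the site's signal within its transcript. The deposited list holds 1 adenosine per site with a prediction score as a fraction from 0.5 to 1, pooled over replicates, so depth and spread between replicates are unknown, and low-expressed genes may go unlisted.

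Sites and DRACH motifs were placed on Ensembl canonical transcripts of GENCODE 44 (GRCh38; the authors used release 31), leaving out readthrough genes. Of all sites, 68 were exonic in more than 1 gene, and 2 of these differed in membership between genes. Listing was compared with Mantel-Haenszel odds ratios and regressions with errors clustered by gene (two-sided), in Python 3.11.15 with statsmodels 0.14.6, scipy 1.17.1, pandas 2.3.3 and pysam 0.24.0, and p-values of 11 tests were Benjamini-Hochberg adjusted. The code was tested on simulated data. Members, lists and tests were chosen with earlier results of these data known.

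Exons and sites were named by rule: the 12 exons with most members, the 5 longest with and the 5 longest without a member, the 5 with the largest share listed among exons of at least 20 motifs, the 5 highest and 3 lowest scores, the 3 sites on each side of the limit, up to 4 genes of each of 7 lists, and the 5 most frequent DRACH and other pentamers. Alternatives varied the score threshold, transcript, distance limit, annotated junctions, host genes, motif and covariates. A member and a sequence that the rule names are not reported here.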

Additional observations from a re-analysis of the deposited data

How the results depend on the processing

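Of 109 recomputed values for 13 results, 69 kept their direction and their side of the threshold; listing of inner against near-end motifs, local GC content, the score difference and the last-exon comparison did so throughout, though the first ratio fell to 4.023 and the last-exon ratio rose to 3.896 at a limit of 50 nt, and the score difference was 0.009666 among scores of at least 0.7. No paired analysis was possible because there was 1 group, and no replicate could be left out because the list pools them. The number of members fell from 1905 to 1050 at scores of at least 0.7 and to 1252 at a limit of 200 nt. The share of inner motifs listed was 9.582% at scores of at least 0.7, 7.22% and 16.19% at limits of 50 and 200 nt, 15.27% in genes with a 3′ untranslated site, 13.74% without the 10 genes with most members (HELZ2 and TNKS1BP1 first) and 47.34% for GGACT. The exon-length ratio was 1.103, 1.574, 0.6948 and 1.173 under the first 4 of these settings, each past the threshold that the reported value missed, 0.9954 away from every annotated exon end, 0.9777 without the 10 genes, 3.16 at up to 800 nt and, above 800 nt, 0.6411, 0.6901 with GC content and 0.6348 in genes with a 3′ untranslated site. The end-distance ratio was 1.013 at scores of at least 0.7, 1.08 at 50 nt, 1.022 with GC content and 1.686 within 400 nt. Of these, 1.08 and 1.686 were past the threshold. The ratio for the 3′ side of the exon was 1.081 and 1.117 at limits of 50 and 200 nt, 1.113 away from annotated ends, 1.113 without strata and 0.6418 for GGACT. Coding position gave 0.9714 at 50 nt, past the threshold, 0.9967 in genes with a 3′ untranslated site, 0.9979 without the 10 genes and 0.9859 with GC content. The GGACT interaction was 0.7432 at scores of at least 0.7, past the threshold, and 1.016 at 50 nt, and the codon phase ratio 0.8534 at 50 nt and 0.9859 without the 10 genes. The non-DRACH ratio was 1.1 at scores of at least 0.7, 0.8306 on the longest transcript, 1.104 at 200 nt, 0.9583 in genes with a 3′ untranslated site and 0.7756 away from annotated ends. Settings on covariates, strata, exon length and distance ranges were chosen after seeing the data. The causes were not tested, and unknown depth per site limits every value.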
